A study of Mus musculus with 6 samples.

Results

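Marginal zone and follicular B cells are the main mature B cell populations of the spleen, and their genes were followed here across 6 spleen arrays as 10 genes of 16361 named in the deposited table, read by 13 of its 31692 probes. The members were named by symbol: Cr2, Notch2, Dtx1, S1pr3, Cd9 and Cd1d1 for marginal zone cells (8 probes), Fcer2a and Cxcr5 for follicular cells (2 probes), and Pax5 and Spib for B cells of either kind (3 probes). Every probe in the table that carries one of these symbols was taken. The tissue was spleen of NOD females, which become diabetic through autoimmunity without being induced. From 6 weeks of age they were injected intraperitoneally every day. One group was given 0.5 mg/kg/day of MOTS-c, a short mitochondrially encoded peptide, and the other a non-specific scrambled version of it, called vehicle. The age at collection was 18 weeks, after 16 to 18 h without food, and 3 vehicle and 3 MOTS-c samples were each labelled with Cy3 and read on 1 array. The arrays are named vehicle 1 to 3 and MOTS-c 1 to 3.

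Marginal zone B cells lie where the lymphoid white pulp meets the red pulp and respond early to antigens carried in blood. Their formation depends on the receptor Notch2, which is activated by Delta-like ligands on stromal cells, and they carry much CD21 (Cr2) and CD1d but little CD23 (Fcer2a). Follicular B cells are CD23-positive, circulate between lymphoid organs and are drawn into follicles by CXCR5, the receptor for the chemokine CXCL13. An enlarged marginal zone compartment has been described in NOD mice.

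Cr2 and Pax5 were each read by more than 1 probe, and the probes of a gene did not give the same difference, so their 60-base sequences are shown, written 5′ to 3′ as deposited, with no capitals because no part is singled out. The Cr2 probes lie within 1899 bases of chromosome 1, and the Pax5 probes are 154446 bases apart from first to last base on chromosome 4.
Cr2 probe 1: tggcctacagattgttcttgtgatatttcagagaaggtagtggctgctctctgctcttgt
Cr2 probe 2: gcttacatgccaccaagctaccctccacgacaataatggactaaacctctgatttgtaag
Cr2 probe 3: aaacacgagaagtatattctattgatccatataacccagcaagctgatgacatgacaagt
Pax5 probe 1: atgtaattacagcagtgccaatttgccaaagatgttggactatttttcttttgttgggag
Pax5 probe 2: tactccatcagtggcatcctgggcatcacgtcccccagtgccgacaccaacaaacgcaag
In build mm9, on the minus strand, Cr2 probes 1 to 3 lie at chr1:196965532-196965591, chr1:196965890-196965949 and chr1:196967371-196967430. Pax5 probes 1 and 2 lie at chr4:44537936-44537995 and chr4:44692322-44692381, also on the minus strand. Which exon or untranslated region each probe falls in was not determined.

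All 13 member probes were well above background on all 6 arrays and all 13 had a higher mean with MOTS-c, as did 52.2% of the 33740 probes tested. The median log2 difference, MOTS-c minus vehicle, was 0.75 over the marginal zone probes, 0.77 over the follicular probes and 0.32 over the pan-B probes, against 0.023 over all tested probes. With only the brightest probe of each gene these medians were 0.56, 0.77 and 0.70, so that the pan-B genes were no longer below the marginal zone genes. Without vehicle 1 the medians were 0.37, 0.25 and 0.0068 over all probes of each role. With only the brightest probes they were then 0.29, 0.25 and 0.26. None of the 13 passed the threshold of an adjusted p under 0.05 in limma's test with Benjamini-Hochberg adjustment over all tested probes, where 0.00593% of probes passed as higher, and their adjusted p-values ran from 0.153 to 0.922. At an unadjusted p under 0.05 there were 5 of 13, against 11.3% of all probes that were higher at that level. In 8 of 13 every MOTS-c value lay above every vehicle value, against 16.3% of all probes. Vehicle 1 was the lowest of the 6 arrays for all 13 probes. Without it 12 of 13 means were still higher, against 53.4% of all probes, and the median over the 13 went from 0.68 to 0.30. The groups then did not overlap for 8, against 18.9% of all probes. That count could not fall, since leaving out an array cannot make separate groups overlap, so it adds nothing to the count with all arrays. At an unadjusted p under 0.05 there were then 6 of 13, against 8.16% of all probes.

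**Figure D1:**
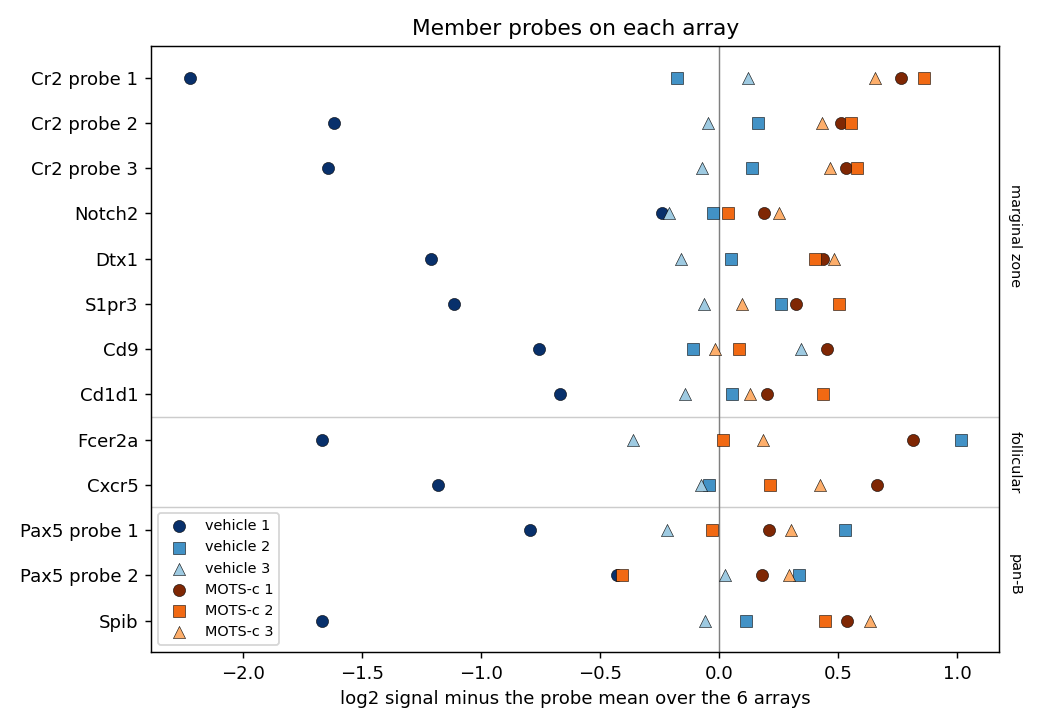
Log2 signal of each member probe on each of the 6 arrays, as the deviation from that probe's mean over the arrays, with 1 point per array and the rows grouped by role. Vehicle 1 is the lowest point in all 13 rows, and the MOTS-c points lie above all vehicle points in 8 of them.

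Cr2, the complement receptor that B cells and follicular dendritic cells carry, had the largest difference of the members. Levels here are log2 signals counted from the 75th percentile of each array, so that 0 is the signal at that percentile. On Cr2 probe 1 the level was 1.86, 3.90 and 4.20 on vehicle 1 to 3 and 4.84, 4.94 and 4.73 on MOTS-c 1 to 3. The groups did not overlap, and the vehicle arrays were spread over a far wider range than the MOTS-c arrays. The difference was 1.52 ± 0.56 (SE, n = 3 per group; 2.87-fold; limma adjusted p 0.160). Cr2 probe 2 read 0.82, 2.60 and 2.39 in vehicle against 2.95, 2.99 and 2.87 with MOTS-c, and Cr2 probe 3 read 0.055, 1.84 and 1.63 against 2.23, 2.28 and 2.17. Both separated the groups too, with smaller differences of 1.00 ± 0.44 and 1.05 ± 0.44 (adjusted p 0.205 and 0.190). Without vehicle 1 the differences of the 3 probes were 0.79, 0.44 and 0.49. In bulk tissue, a change in the number of cells of a type and a change in RNA per cell cannot be told apart.

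Follicular dendritic cells are the other main source of Cr2 transcripts. Of 9 tested genes that mark them, 7 had higher means with MOTS-c and 2 lower, with a median difference of 0.40, or 0.20 without vehicle 1, and 0 passed the threshold. The mean level of that list was 1.59 to 1.77 on the vehicle arrays and 1.81 to 2.08 on the MOTS-c arrays. Bst1, an ectoenzyme, differed by 0.73 ± 0.17 and Prnp, the prion protein gene, by -0.82 ± 0.15, though another probe of Prnp read 0.22 (adjusted p 0.0852 and 0.0795 for the values with an error). The part of these cells in the Cr2 difference was not tested.

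Notch2, the receptor that directs B cells to the marginal zone fate, differed little in size but with little spread. Its level was 2.01, 2.22 and 2.04 on vehicle 1 to 3 and 2.44, 2.28 and 2.50 on MOTS-c 1 to 3. The groups did not overlap, with the lowest MOTS-c array just above vehicle 2. The difference was 0.32 ± 0.15 (SE; 1.24-fold; limma adjusted p 0.221), and it hardly moved without vehicle 1, at 0.28 ± 0.15. In the authors' deposited table Notch2 had a signed fold of 1.32 at a p-value of 0.0252, the only 1 of the 13 member probes with a p-value there under 0.05, and an adjusted p-value of 0.370.

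Dtx1 encodes Deltex1, an E3 ubiquitin ligase that Notch signalling induces in marginal zone B cells. Its level was 1.86, 3.13 and 2.91 in vehicle and 3.51, 3.48 and 3.56 with MOTS-c. The groups did not overlap, and the MOTS-c arrays lay close together. Dtx1 differed by 0.88 ± 0.32 (SE; 1.84-fold), with the smallest adjusted p of the members, 0.153. Without vehicle 1 the difference was 0.50 ± 0.14 (adjusted p 0.156).

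S1pr3, a receptor for sphingosine 1-phosphate, the lipid whose gradient helps to hold these cells in the marginal zone, read -1.25, 0.12 and -0.20 in vehicle and 0.18, 0.36 and -0.042 with MOTS-c. Its groups overlapped, because MOTS-c 3 lay below vehicle 2, and its difference was 0.61 ± 0.34 (adjusted p 0.291), or 0.21 without vehicle 1 and 0.37 with the slide as a block. Cd1d1 encodes CD1d, which presents lipids to natural killer T cells. Its level was 2.32, 3.04 and 2.85 in vehicle and 3.19, 3.43 and 3.12 with MOTS-c, without overlap, and it differed by 0.51 ± 0.22 (adjusted p 0.198), or 0.30 without vehicle 1. The paralog Cd1d2 is close in sequence, and whether its transcripts bind the Cd1d1 probe was not tested.

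Cd9, a tetraspanin of marginal zone B cells that platelets also carry, read 2.27, 2.92 and 3.38 in vehicle and 3.48, 3.11 and 3.01 with MOTS-c. The groups overlapped, since vehicle 3 exceeded MOTS-c 2 and 3. The difference of 0.35 ± 0.29 (adjusted p 0.460) was 0.055 without vehicle 1 and -0.17 ± 0.33 with the slide as a block. In a list of 13 megakaryocyte and platelet genes, all 13 had higher means with MOTS-c, with a median difference of 0.19, and 0 passed or separated the groups. That median was -0.046 without vehicle 1, 0.021 without MOTS-c 1 and -0.40 with the slide as a block. The mean level of that list was highest on MOTS-c 1 at 2.21 and vehicle 3 at 2.15, the same pair of arrays on which Cd9 was highest, and 1.03 to 1.59 on the other arrays. The part of these cells in the Cd9 values was not tested.

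Of the follicular genes, Cxcr5 separated the groups and Fcer2a did not. Cxcr5 read 1.66, 2.80 and 2.76 in vehicle and 3.50, 3.05 and 3.26 with MOTS-c. It differed by 0.87 ± 0.32 (SE; 1.82-fold; adjusted p 0.160), and by 0.49 ± 0.17 without vehicle 1. Fcer2a, the low-affinity IgE receptor CD23, read -1.38, 1.30 and -0.080 in vehicle and 1.09, 0.30 and 0.47 with MOTS-c. The highest of the 6 values was that of vehicle 2 and the lowest that of vehicle 1, so the MOTS-c values lay inside the vehicle range. The difference was 0.68 ± 0.62 (adjusted p 0.498), with a 95% confidence interval from -0.77 to 2.12. Without vehicle 1 it was 0.011 ± 0.44, and without vehicle 2 it was 1.35.

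The pan-B genes disagreed with each other. Pax5, the transcription factor that holds cells to the B lineage, read 0.15, 1.47 and 0.72 in vehicle and 1.15, 0.91 and 1.24 with MOTS-c on probe 1. Vehicle 2 was the highest array, and the difference was 0.32 ± 0.32 (adjusted p 0.533). Pax5 probe 2 was dim, at -3.33, -2.57 and -2.88 in vehicle and -2.72, -3.31 and -2.61 with MOTS-c, and differed by 0.045 ± 0.26 (adjusted p 0.922), with a sign that turned with the processing. Spib, an Ets family factor of B cells and plasmacytoid dendritic cells, read 1.23, 3.01 and 2.84 in vehicle and 3.43, 3.34 and 3.53 with MOTS-c. Its groups did not overlap, and it differed by 1.08 ± 0.44 (SE; 2.11-fold; adjusted p 0.186), or 0.51 without vehicle 1. Within each array, Spib minus the mean of the Pax5 probes was higher with MOTS-c by 0.89 and did not overlap between groups, with an exact two-sided permutation p of 0.1, the smallest that 3 arrays against 3 can give. As deviations from the mean over the arrays, that quantity was -0.45 ± 0.56 in vehicle and 0.45 ± 0.19 with MOTS-c (SD, n = 3). Of 8 tested plasmacytoid dendritic cell genes, 6 had higher means and 0 passed, with a median of 0.55, or 0.058 without vehicle 1. For each gene with a lower mean another probe read higher, at 0.98 and 0.66. The part of those cells in the Spib difference was not tested.

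**Figure D2:**
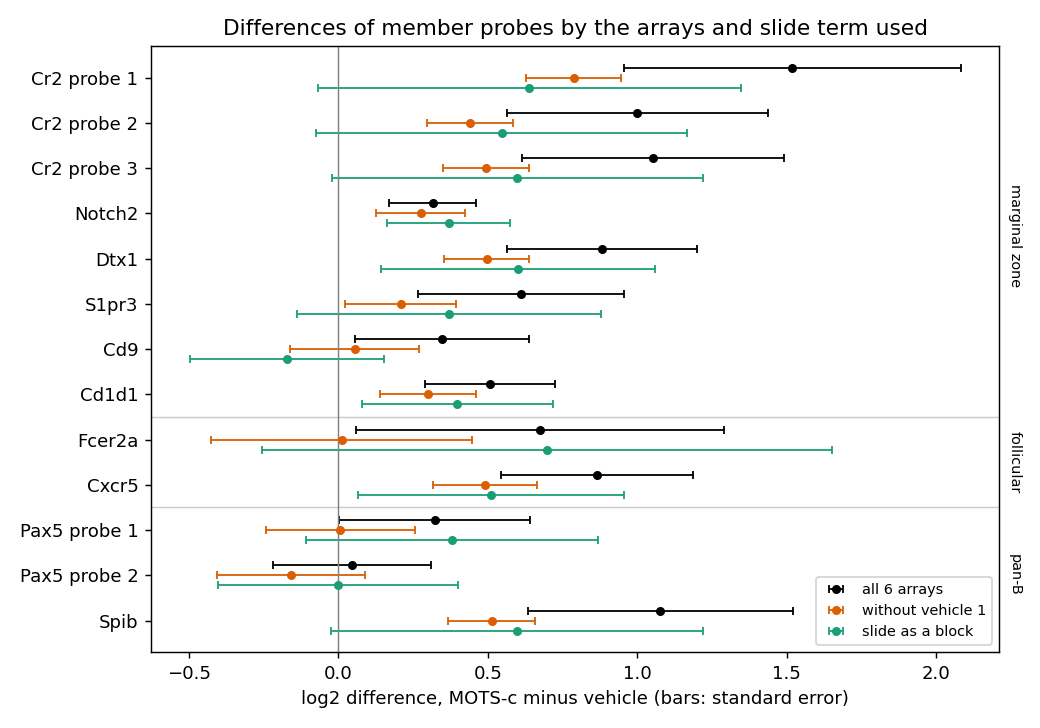
Log2 difference, MOTS-c minus vehicle, of each member probe with its standard error, from all 6 arrays, without vehicle 1, and with the slide as a block. With all arrays every point lies above 0, and without vehicle 1 those of Fcer2a, Cd9 and Pax5 probe 1 lie near it at 0.011, 0.055 and 0.0068.

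The slide divides the arrays unevenly, because vehicle 1 and 2 were on 1 slide and vehicle 3 with the 3 MOTS-c arrays on another, scanned separately. With the slide as a block, which leaves vehicle 3 as the only vehicle array that sets the difference, 11 of 13 probes were higher. The Cr2 probes then differed by 0.64, 0.55 and 0.60, Dtx1 and Spib by 0.60 each, Cxcr5 by 0.51, Cd1d1 by 0.40, Notch2 by 0.37 and Fcer2a by 0.70. None passed, and adjusted p-values ran from 0.629 to 0.999.

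To ask whether marginal zone and follicular genes differed beyond B cells as a whole, the mean of Pax5 and Spib was subtracted from each probe on each array. Relative to that reference 6 of the 10 marginal zone and follicular probes were higher with MOTS-c, against 8.87% of all probes, whose median was -0.61 on this scale because the reference itself was higher by 0.63. The planned limma fit of these values called 0 of 10, where 0.104% of all probes were called higher. It gave all probes 1 common standard error, since they share the error of the reference, so its p-values are not used further and exact permutation p-values stand in their place.

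Cr2 stood highest on this relative scale. Cr2 probe 1 was -0.44 ± 0.64 in vehicle and 0.44 ± 0.28 with MOTS-c (SD, n = 3, as deviations from the mean over the arrays), a difference of 0.89 with an exact permutation p of 0.2, and probes 2 and 3 differed by 0.37 and 0.42 at the same exact p. The 3 relative differences were 0.57, 0.22 and 0.28 without vehicle 1, and 0.25, 0.15 and 0.21 when the slide was a block. Dtx1 was the only 1 of the 10 probes whose groups did not overlap, at -0.13 ± 0.083 against 0.13 ± 0.14 (SD, n = 3; difference 0.25; exact permutation p 0.1, the smallest possible). Its relative values were -0.073, -0.22 and -0.083 on vehicle 1 to 3 and 0.070, 0.29 and 0.018 on MOTS-c 1 to 3. Of all probes, 0.691% did not overlap with MOTS-c higher. That share leaves out probes that were lower, and the reference, itself higher by 0.63, makes it small. Cxcr5 differed by 0.24 (exact permutation p 0.2) and Fcer2a by 0.045 (0.9). Below the reference lay Notch2 at -0.31 (exact permutation p 0.8), Cd9 at -0.28 (0.5), Cd1d1 at -0.12 (0.6) and S1pr3 at -0.019 (0.9). The median over the marginal zone probes was 0.12 and over the follicular probes 0.14.

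The sign of the relative values turned on which pan-B gene was the reference, while a change of reference shifts all probes alike and leaves their order as it is. Against Pax5 alone all 10 probes were higher with MOTS-c, from 0.13 for Notch2 to 1.34 for Cr2 probe 1. Pax5 was the mean of its probes, here and in the joint reference, so the dim probe 2 weighed as much as probe 1. Pax5 probe 1 by itself differed by 0.32, as did Notch2, and was not run as a reference. Against Spib alone 1 of 10 was higher, Cr2 probe 1 at 0.44, and Notch2 was lowest at -0.76. Against the mean of 21 other B cell genes, 7 of 10 were higher, with Cr2 probe 1 at 0.98, Dtx1 at 0.34, Cxcr5 at 0.33, Fcer2a at 0.14 and Notch2 at -0.22. A relative value shows unequal differences within an array and not which gene stayed the same.

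**Figure D3:**
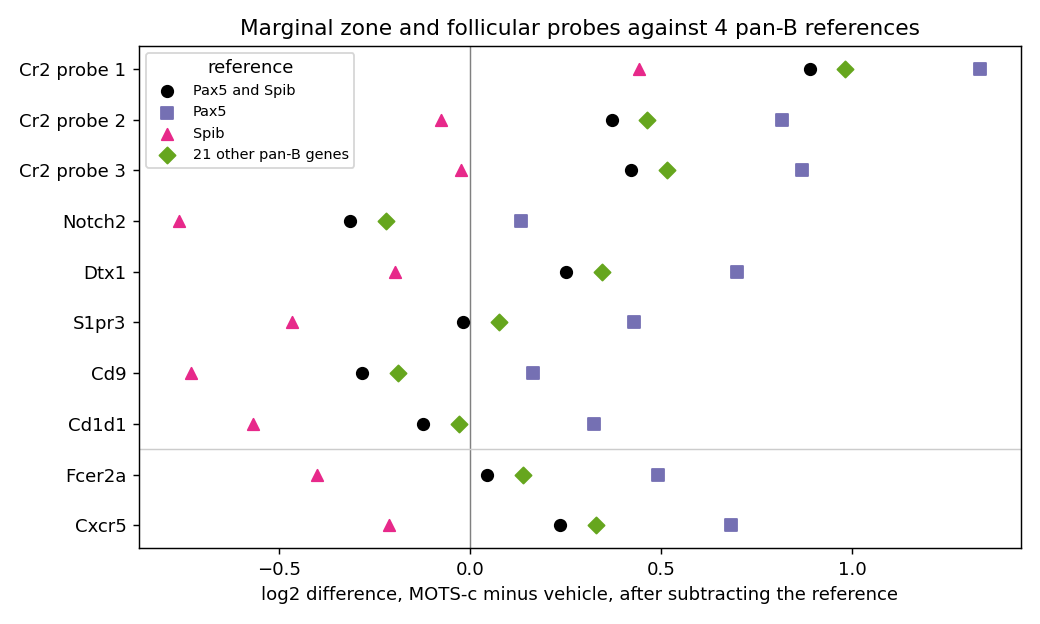
Log2 difference, MOTS-c minus vehicle, of the 10 marginal zone and follicular probes after a pan-B reference was subtracted on each array, with 1 symbol per reference. All 10 lie above 0 against Pax5, taken as the mean of its probes, and 1 of 10 against Spib. Cr2 probe 1 lies above 0 with each of the 4 references.

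The 21 other B cell genes had a median difference of 0.58, with 19 of 21 means higher and 2 lower, and 0 passed. At an unadjusted p under 0.05 there were 5 higher, against 11.3% of all probes, and 7 separated the groups, against 16.3%. Blnk, the adaptor downstream of the B cell receptor, differed by 0.54 ± 0.22, Cd72, a surface receptor that restrains B cell activation, by 0.77 ± 0.31, and Btk, a kinase of the same pathway, by 0.45 ± 0.16. Their mean level was 1.36, 2.50 and 2.15 on vehicle 1 to 3 and 2.57, 2.46 and 2.60 on MOTS-c 1 to 3, so MOTS-c 2 lay below vehicle 2. Without vehicle 1 the median was 0.26.

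Further genes linked to the marginal zone were described from a list of 24, all tested. In that list 20 had higher and 4 lower means, with a median of 0.41, and 0 passed. At an unadjusted p under 0.05, 8 were higher and 2 lower, against 11.3% and 14.1% of all probes, and the groups separated for 9 and 1, against 16.3% and 18.5%. Fcrl5, an Fc receptor-like protein of marginal zone B cells, differed by 1.07 ± 0.27 (adjusted p 0.0960), though another probe of it read -0.25. Sema7a, a semaphorin, differed by 0.74 ± 0.18 (0.0870). Adam10, the protease that cleaves Notch2 once its ligand is bound, had a lower mean, with a difference of -0.82 ± 0.21 (0.0944), and both its probes read lower. Without vehicle 1 the median of the list was 0.19.

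Of 32 tested genes of the Notch pathway, 20 had higher and 12 lower means, the median difference was 0.082, and 0 passed. At an unadjusted p under 0.05 there were 4 higher and 0 lower, against 11.3% and 14.1% of all probes, and 8 separated the groups as higher and 0 as lower, against 16.3% and 18.5%. Mfng, a glycosyltransferase that tunes Notch for Delta-like ligands, differed by 0.65 ± 0.25, Dtx2, a relative of Dtx1, by 0.62 ± 0.18, and Numb, an inhibitor of Notch, by 0.51 ± 0.17, with adjusted p-values of 0.173, 0.118 and 0.137. Dll4, a ligand, was not well above background on any vehicle array and was tested only because all 3 MOTS-c arrays detected it. It is counted among the 4 and the 8 above, and because that filter favours a higher MOTS-c value, its test is no support. Its difference did not pass (limma adjusted p 0.132) and is given as a bound, at least 1.22-fold higher with MOTS-c. That bound sets the MOTS-c mean against the vehicle arrays' detection limit, taken as the lowest signal of any detected probe, or against Dll4 itself where that was higher. The measured means of Dll4 were -5.88 and -5.26.

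Genes that place B cells in the follicle, with their chemokines and adhesion partners, were higher in 16 of 21 and lower in 5, with a median of 0.34 and 0 past the threshold. Gpr183, the oxysterol receptor that guides B cells to the outer follicle, was 2.15-fold higher in its mean (adjusted p 0.179), and Itgal, a chain of the integrin LFA-1, by 0.83 ± 0.31 (0.164). Ccl21a, a chemokine of the T cell zone, differed by 0.67 ± 0.26 (0.171). Tnfsf13b, which encodes the B cell survival factor BAFF, differed by 0.53 ± 0.19 (0.157), though another of its probes read -0.28. Without vehicle 1 the median was 0.23. Of 10 germinal centre genes 6 had higher and 4 lower means with a median of 0.19, which turned to -0.12 without vehicle 1, and of 8 plasma cell genes 7 were higher with a median of 0.18. Of 6 B1 and transitional B cell genes 5 were higher, with a median of 0.68, or 0.18 without vehicle 1. None of these 3 lists had a gene past the threshold.

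Marker lists of other spleen cells were read on the same arrays. All 14 T cell genes had higher means with MOTS-c (median 0.94, 0 passed), and their mean level was 1.00, 2.42 and 2.56 in vehicle and 3.02, 2.94 and 2.88 with MOTS-c. For 13 of these 14 every MOTS-c value lay above every vehicle value, against 16.3% of all probes. At an unadjusted p under 0.05 in limma's test there were 5 higher, against 11.3%. The T cell median was 0.40 without vehicle 1 and 0.38 with the slide as a block. All 14 erythroid genes had lower means (median -1.21, 0 passed), at 4.83, 4.00 and 4.55 in vehicle and 3.26, 3.44 and 3.14 with MOTS-c. In each of those 14 the MOTS-c values lay below all vehicle values, against 18.5% of all probes. Vehicle 1, the lowest array for every member, was thus also the lowest for the T cell list and the highest for the erythroid list. Macrophage genes, mostly of marginal zone and metallophilic cells and some of the red pulp, were higher in 6 of 7 (median 0.63, 0 passed). The 1 lower was a red pulp gene. Cd209b, the lectin SIGN-R1 of marginal zone macrophages, differed by 0.92 ± 0.34 (adjusted p 0.157), and the median of that list was 0.25 without vehicle 1. Of 10 myeloid genes all had higher means (median 0.28, 0 passed), and 0 separated the groups. The myeloid median was 0.12 without vehicle 2, 0.57 without vehicle 3 and -0.068 with the slide as a block. The part of these cell types in the member differences was not tested.

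**Figure D4:**
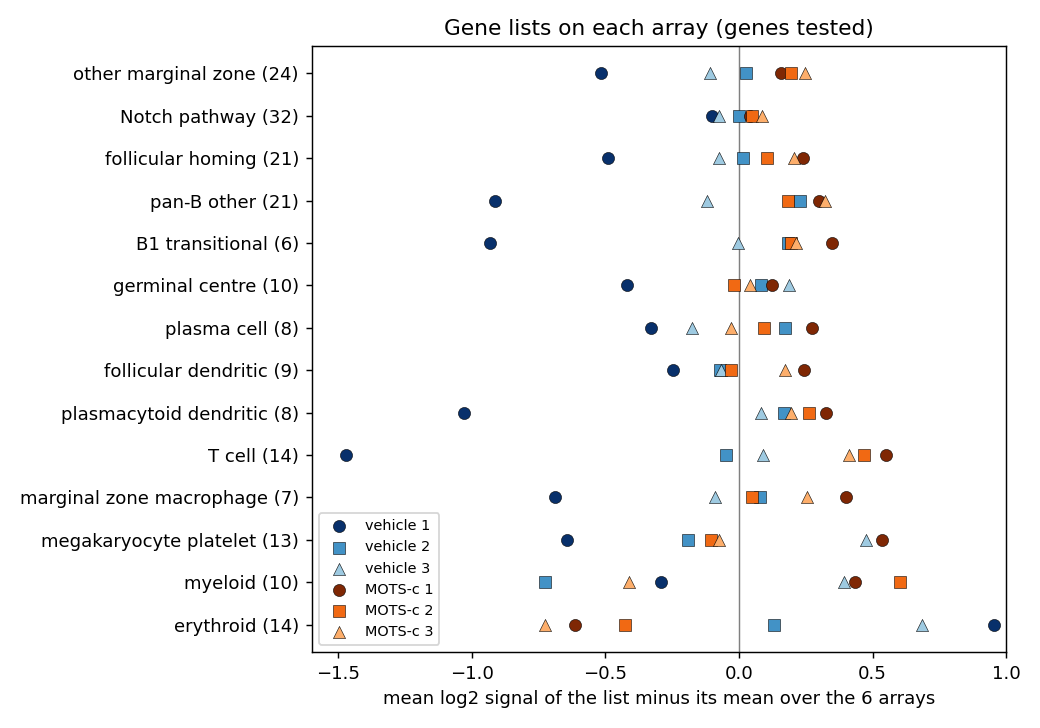
Mean log2 signal of each gene list on each array, as the deviation from its mean over the 6 arrays, with 1 point per array and the number of tested genes in brackets. Vehicle 1 is the lowest array of the pan-B, T cell and other marginal zone lists and the highest of the erythroid list.

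The profiles of Cr2 and Fcer2a over the arrays resembled different genes. By the root mean square difference between centred log2 profiles over the 6 arrays, among 16922 named genes, the closest to Cr2 probe 1 were Izumo1r (0.138), Ifi209 (0.139), Pglyrp2 (0.143), Ltb (0.153) and Cd3g (0.164). Those closest to Fcer2a were B3gnt8 (0.152), Crybg2 (0.248), Ctnnd2 (0.275), Lad1 (0.276) and Lurap1 (0.280). The first group had differences of 1.24 to 1.65 and the second of 0.38 to 0.73, and none passed the threshold. Vehicle 1 was the lowest array for each of the 10 genes, and vehicle 2 the highest for each of the Fcer2a group. These genes were picked for their likeness on the same arrays, so such shared features follow from the choice and are description only.

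The 250 bases before the start of each gene were searched in RefSeq promoters (GRCm38.p6), which held 8 of the 10 members (10 start sites). The letters TGGGAA, the core that the Notch partner RBPJ binds, were found on either strand for 3 of the 8 genes, Cr2, Cd9 and Fcer2a. By start site this was 4 of 10, against 21.6% of all 32851 promoters. The letters GAGGAAG, bound by PU.1 and Spi-B, were found for Dtx1 alone, at 1 of 10 start sites, against 10.6% of all promoters. Both motifs hold the letters GGAA, but with these letters around it their matches cannot overlap. The Cr2 and Dtx1 promoters are shown because these genes had the largest differences of the marginal zone members, in lower case with the matched letters in capitals. They lie on the minus strand at chr1:195176720-195176969 and chr5:120711670-120711919.
Cr2 promoter: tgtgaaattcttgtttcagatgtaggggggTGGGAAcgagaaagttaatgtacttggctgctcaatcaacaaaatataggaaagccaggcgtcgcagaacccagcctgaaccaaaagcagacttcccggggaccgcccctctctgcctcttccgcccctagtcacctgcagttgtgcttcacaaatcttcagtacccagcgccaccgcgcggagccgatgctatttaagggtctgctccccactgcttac
Dtx1 promoter: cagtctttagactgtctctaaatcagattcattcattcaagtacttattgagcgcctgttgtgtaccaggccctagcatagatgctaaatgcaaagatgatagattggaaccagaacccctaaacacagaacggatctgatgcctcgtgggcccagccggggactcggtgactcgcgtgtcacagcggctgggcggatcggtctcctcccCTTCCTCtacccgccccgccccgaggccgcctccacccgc
The match in Cr2 begins 220 bases before the start and that in Dtx1, read on the opposite strand, 40 bases before it. A match describes letters only and is no evidence of binding.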

How the data were processed

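Arrays were read in the Cy3 channel, per the file headers, with Agilent Feature Extraction 11.0.1.1, also named in the submitters' processing notes, which gave a background-subtracted processed signal intensity per spot. The authors' deposited table holds the same intensities, log2 values that are quantile normalized by their distribution, a signed fold scored as MOTS-c over vehicle, and p-values of the authors with adjusted values. Groups came from the titles, and the labels do not say whether each is a mouse of its own, so a p-value covers the spread between these samples only. Log2 processed signals were centred on each array's 75th percentile, with outlier spots (97 to 145 per array) left out and spots of a probe averaged. Before log2 that percentile was 678 on vehicle 1, the lowest, and 841 to 926 on the other arrays. Between 61.8% and 64.0% of spots were well above background and 0 were saturated. A probe was tested if every array of either group had it well above background, using limma 3.58.1 in R 4.3.3, two-sided, checked on simulated data. The background alternative used normexp with an offset of 50 on the median signal, because no mean signal column was used here. The members and lists were chosen with earlier results of these data known. Lists are described by each gene's brightest probe. Named are all members, up to 4 genes of a list by smallest p, and the 5 genes nearest to Cr2 and to Fcer2a, leaving out clone and model names, and 1 gene that this rule names is not reported here. Of 213 list entries 207 were tested.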

Additional observations from a re-analysis of the deposited data

How the results depend on the processing

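No member probe passed the threshold under any alternative run, and the 3 role medians kept their direction. The count of all probes past it, 2, was 584 with normexp, 1 with the slide as a block, and 0 with the authors' normalized values, with no filter on dim probes, with probes well above background on all arrays, within slide 2 and with the replicate block. Leaving out each array gave 0 to 1113, with 1113 without vehicle 2 and 39 without vehicle 3. The causes were not tested. Same-numbered arrays did not deviate together (correlations of -0.171, 0.0064 and -0.0902 over probes), and 2 descriptions give another number than the title, so the replicate block rests on a shared number only. Members at an unadjusted p under 0.05 numbered 0 to 10 over the arrays left out.

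Some small differences changed sign. Pax5 probe 2 was -0.047 with normexp, -0.00091 with the slide as a block and within slide 2, -0.16 without vehicle 1, -0.034 and -0.091 without MOTS-c 1 and 3, and -0.16 to 0.26 over the arrays left out. Cd9 was -0.17 with the slide as a block and within slide 2. Relative to Pax5 and Spib, Fcer2a was -0.0073 with quantile normalization, -0.0033 with normexp, -0.010 with the authors' values, -0.21 without vehicle 1, -0.086 without vehicle 3 and -0.17 without MOTS-c 1, in a range of -0.21 to 0.43. Cd1d1 was 0.0045 with the slide as a block and within slide 2, 0.081 without vehicle 1 and 0.016 without MOTS-c 3, in a range of -0.31 to 0.081. Notch2 was 0.057 without vehicle 1 (range -0.54 to 0.057) and S1pr3 0.16 without MOTS-c 3 (range -0.22 to 0.16). Against Pax5 alone, Notch2, S1pr3, Cd9 and Cd1d1 were 0.13, 0.43, 0.16 and 0.32. Against Spib alone, Cr2 probes 2 and 3, Dtx1, Fcer2a and Cxcr5 were -0.077, -0.025, -0.20, -0.40 and -0.21. S1pr3 was 0.075 against the other pan-B genes. The relative count was 0 of 10 in each alternative, also with no moderation of the spread, added after the data were seen. It was 0 of 8 with 1 probe a gene, where the reference still held both Pax5 probes. With 3 arrays a group, the number of arrays limits precision.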
